A study of Mus musculus with 8 samples.

Results

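Guanylate-binding proteins are large GTPases of the dynamin superfamily that interferons induce in macrophages. They coat the vacuoles of intracellular pathogens and bacteria in the cytosol, and they help the non-canonical inflammasome to sense bacterial lipopolysaccharide. Interferons act on such genes through short promoter elements, the interferon-stimulated response element (ISRE) and the gamma-activated site (GAS), and IRF1 also acts through ISRE-like sites. The family was taken by gene symbol as 10 genes, Gbp2 to Gbp11, of 30284 genes with a value. For 9 of the 10 the files hold at least 1 transcript. None of the 3 transcripts annotated to Gbp6 is among the file IDs used here, so Gbp6 was not analysed.

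The libraries were made from total RNA of macrophages of 7-week-old male C57BL6 mice stimulated in the peritoneal cavity. They form 4 groups of 2: saline for 4 h, lipopolysaccharide (LPS, which TLR4 senses) for 4 h, interferon beta (IFNb) for 4 h, and IFNb for 4 h and then LPS for 4 h, called LPS+IFNb. LPS+IFNb cells were thus taken 8 h after IFNb, and no group received IFNb and then saline, so the effect of LPS and that of a longer time after IFNb cannot be told apart in LPS+IFNb. Whether both libraries of a group stem from different animals is not in the labels, so the p-values speak only of library-to-library spread, technical or not.

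Levels are in TPM, a length-corrected share of all transcripts in a library, so genes can be compared with each other but depth is unknown. All 6 general macrophage markers were detected, with a summed level of 13635 to 21760 TPM. The 4 monocyte markers summed to 64.1 to 78.7 TPM in the saline and LPS libraries. The sum was 537 to 684 TPM with IFNb and 351 to 435 TPM with LPS+IFNb. It was thus higher with IFNb, as the family was, but not with LPS alone, where the family rose. Ccr2 went the other way, from 34.1 and 31.5 TPM in saline to 5.45 and 4.15 with LPS and 23.4 and 22.8 with IFNb. In LPS+IFNb libraries Ccr2 was at 5.34 and 8.02 TPM. Against saline 3 of the 4 were called higher and none lower with IFNb, where 13% of all genes were higher and 38.6% lower. With LPS 2 were higher and 1 lower, where 12.8% and 41.3% of all genes were. With LPS+IFNb 3 were higher and 1 lower, where 15.2% and 54.1% of all genes were. None of the 4 markers was at 0 in every library, and their part in the results was not tested. The summed markers of T and NK cells (6 genes) lay at 6.14 to 19.9 TPM, of B cells (5 genes) at 28.3 to 56.4 TPM and of neutrophils (5 genes) at 89.7 to 219 TPM over all libraries. In bulk RNA, more cells of a type and more RNA per cell cannot be told apart.

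The members lie in a pair of clusters. On mouse chromosome 3 (GRCm38, plus strand) GENCODE places Gbp5 (ENSMUSG00000105504) at chr3:142493978-142522344, Gbp7 (ENSMUSG00000040253) at chr3:142530342-142550149, Gbp3 (ENSMUSG00000028268) at chr3:142560026-142573209 and Gbp2 (ENSMUSG00000028270) at chr3:142620602-142638008. The chromosome 5 cluster, on the minus strand, holds Gbp8 (ENSMUSG00000034438) at chr5:105014150-105139540, Gbp9 (ENSMUSG00000029298) at chr5:105077630-105139539, Gbp4 (ENSMUSG00000079363) at chr5:105115767-105139586, Gbp10 (ENSMUSG00000105096) at chr5:105215699-105239533, Gbp6 (ENSMUSG00000104713) at chr5:105270702-105293698 and Gbp11 (ENSMUSG00000092021) at chr5:105323042-105346472. All are annotated as protein coding except Gbp11, a polymorphic pseudogene. Gbp8 and Gbp9 overlap Gbp4 in this annotation.

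RefSeq start-site windows (GRCm38.p6, 250 bases before to 50 after a start) were matched for 4 members, Gbp2, Gbp3, Gbp5 and Gbp7. Each of the 4 had a window with the letters of an ISRE core, TTTCNNTTTC on either strand, which 3.44% of all 32851 windows hold. The stretches below are shown because only these 4 members had a matched window, while all 9 tested members rose with IFNb. They give those matches in capitals, with GAS matches (TTCNNNGAA, in 8.3% of windows) and a match to the NF-kB consensus (in 8.46%), all on the plus strand, 5′ to 3′. They lie at chr3:142620595-142620622 for Gbp2, chr3:142559990-142560023 for Gbp3, chr3:142496760-142496899 for Gbp5 and chr3:142530221-142530301 for Gbp7.
Gbp2: ctcttttagTTTCACTTTCactgtctta
Gbp3: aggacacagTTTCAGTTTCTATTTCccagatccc
Gbp5: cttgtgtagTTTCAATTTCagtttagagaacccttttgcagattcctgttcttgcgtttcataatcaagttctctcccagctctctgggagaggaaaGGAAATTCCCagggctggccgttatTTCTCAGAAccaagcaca
Gbp7: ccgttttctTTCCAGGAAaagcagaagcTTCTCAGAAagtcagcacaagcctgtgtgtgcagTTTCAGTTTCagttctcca

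The ISRE match began 59 bases before the RefSeq start of Gbp2, which is just inside the first exon that GENCODE gives this gene. In Gbp3 a pair of overlapping ISRE matches began 45 and 39 bases before the start, and the other Gbp3 window held none of the 3 motifs. Gbp7 had its ISRE match at 53 bases before the start and GAS matches at 106 and 87 bases. Gbp5 held all 3 motifs: the ISRE letters at 165 bases before the start, the NF-kB consensus at 77 and GAS letters at 52, with a further GAS match at 245 bases. The Gbp2 window also matched the NF-kB consensus, 7 bases after the start. A match is a run of letters and not a measured site of binding.

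**Figure D1:**
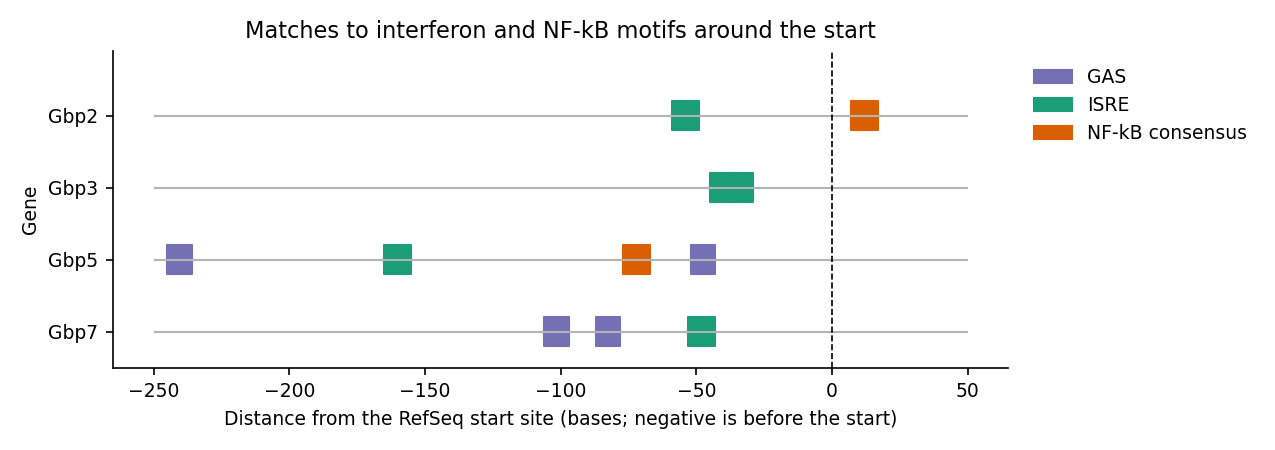
Position of motif matches (coloured blocks) in the start-site windows of the 4 chromosome 3 members, by distance in bases from the RefSeq start (dashed line). Every gene has an ISRE match before the start, shown for Gbp3 as 1 block made of overlapping matches; Gbp5 alone of these 4 has an NF-kB match before its start, 77 bases away.

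How far members can be told apart depends on their sequences, since reads were assigned to transcripts by short matches. Of the 31-base words of a transcript, 98.3% were found in no other gene's transcripts for Gbp5-201, 95.1% for Gbp2-201, 92.8% for Gbp3-203 and 91.6% for Gbp7-202. The chromosome 5 members had fewer words of their own: 81.1% in Gbp9-201, 77.6% in Gbp4-201, 65.9% in Gbp11-201 and 65.3% in Gbp8-201. Gbp10-201 had only 11.2%, and 84.2% of its words recurred in Gm43302, a protein-coding gene that GENCODE places across Gbp10 and Gbp6. The levels of Gbp10 are therefore uncertain, and those of Gbp8 and Gbp11 less certain than those of the chromosome 3 members.

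Resting macrophages held low levels of the family. Gbp2, a prenylated member that is recruited to pathogen vacuoles, was at 18.5 and 18.9 TPM in the saline libraries, and Gbp3 at 10.8 and 7.60 TPM. Gbp9 had 5.05 and 4.63 TPM, Gbp7 had 4.49 and 4.56 TPM and Gbp5, which is also prenylated and has been tied to inflammasome assembly, had 3.38 and 3.36 TPM. Gbp8 stood at 1.22 and 0.911 TPM and Gbp4 at 0.786 and 0.781 TPM. Gbp10 was listed at 0 and 0.130 TPM and Gbp11 at 0.0959 and 0 TPM. In that order of means all neighbours stood apart in their 2 libraries, except Gbp10 and Gbp11, which overlapped. Together the 9 genes made up 42.6 ± 2.45 TPM (SD, n = 2), or 0.00426% of the library.

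With LPS alone the 4 chromosome 3 members rose, as did Gbp4 and Gbp9. Tests are limma fits to log2(TPM + 1) over 13009 genes and all 8 libraries, differences are given ± SE, and the threshold for a call was an adjusted p of 0.05. Gbp5 went from 3.38 and 3.36 to 714 and 695 TPM, a 209-fold higher mean (log2 difference 7.33 ± 0.08, adjusted p = 1.83e-07). It became the most abundant member and ranked 223 and 238 among 30284 genes in the LPS libraries. Gbp2 reached 249 and 254 TPM (13.4-fold, 3.68 ± 0.07, adjusted p = 8.96e-07), Gbp3 192 and 183 TPM (20.3-fold, 4.22 ± 0.15, adjusted p = 4.02e-06) and Gbp7 89.8 and 82.6 TPM (19.0-fold, 3.98 ± 0.08, adjusted p = 9.12e-07). None of these libraries overlapped with saline, where 18.2% of all genes had LPS libraries wholly above saline.

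On chromosome 5 LPS took Gbp9 to 26.5 and 23.6 TPM (5.17-fold, 2.16 ± 0.09, adjusted p = 1.10e-05) and Gbp4, which has been described as a brake on IRF7, to 11.4 and 8.17 TPM (2.58 ± 0.16, adjusted p = 6.38e-05). Gbp8 had 1.80 TPM in either LPS library (0.44 ± 0.18, adjusted p = 0.0762), Gbp10 0.419 and 1.10 TPM (0.70 ± 0.32, adjusted p = 0.107) and Gbp11 0.691 and 0.263 TPM (0.48 ± 0.29, adjusted p = 0.211). For these 3 the adjusted p was under 0.05 with a pseudocount of 0.1 TPM in place of 1, at 0.0350, 0.0164 and 0.0295. Gbp10 was also called with the replicate block (adjusted p = 0.0289). Gbp8 was also called with median-ratio scaling (0.67, adjusted p = 0.0233) and upper-quartile scaling (0.54, adjusted p = 0.0376).

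In all 6 of the 9 tested members were higher with LPS and none lower, against 12.8% of all genes higher and 41.3% lower. The median difference was 2.58 over the members and -0.38 over all genes. With median-ratio scaling, which moves the all-gene median by 0.39, the calls over all genes were 2718 higher and 2254 lower in place of 1664 and 5368. Gbp4, Gbp10 and Gbp11 were under 1 TPM in both saline libraries and entered the test only through treated libraries, where they had to be higher, so a count over the 9 cannot support a rise. Of the other 6, 5 were higher.

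With IFNb alone every tested member rose, and Gbp2 led. It reached 1948 and 1841 TPM, far above saline (6.58 ± 0.07, adjusted p = 9.85e-08), and ranked 62 and 68 among 30284 genes. Gbp3 reached 667 and 643 TPM (6.03 ± 0.15, adjusted p = 7.60e-07), Gbp5 567 and 537 TPM (6.98 ± 0.08, adjusted p = 9.85e-08) and Gbp7, a member linked to defence against Toxoplasma, 384 and 363 TPM (6.08 ± 0.08, adjusted p = 1.71e-07). No library of the 4 overlapped with saline, with folds of the mean TPM from 71.2 for Gbp3 to 164 for Gbp5.

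The chromosome 5 members rose with them. Gbp9 stood at 253 and 246 TPM (51.5-fold, 5.42 ± 0.09, adjusted p = 3.08e-07), Gbp4 at 108 and 110 TPM (139-fold, 5.95 ± 0.16, adjusted p = 1.31e-06) and Gbp8 at 15.8 and 17.2 TPM (15.5-fold, 3.09 ± 0.18, adjusted p = 3.73e-05). Gbp10 was at 5.19 and 9.13 TPM (2.90 ± 0.32, adjusted p = 0.000672) and Gbp11 at 6.55 and 4.07 TPM (2.56 ± 0.29, adjusted p = 0.000791), with no fold given because each was listed at 0 in 1 saline library. No library of these 5 genes overlapped with saline, where 18.6% of all genes had IFNb libraries wholly above saline. All 9 were called higher, and so were all 6 of those with at least 1 TPM in a saline library, where 13% of all genes were higher and 38.6% lower (1697 and 5020 genes, or 2429 and 1938 with median-ratio scaling). The median difference was 5.95 over the members and -0.37 over all genes. LPS and IFNb were set against the same saline libraries, so these 2 comparisons are not independent.

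**Figure D2:**
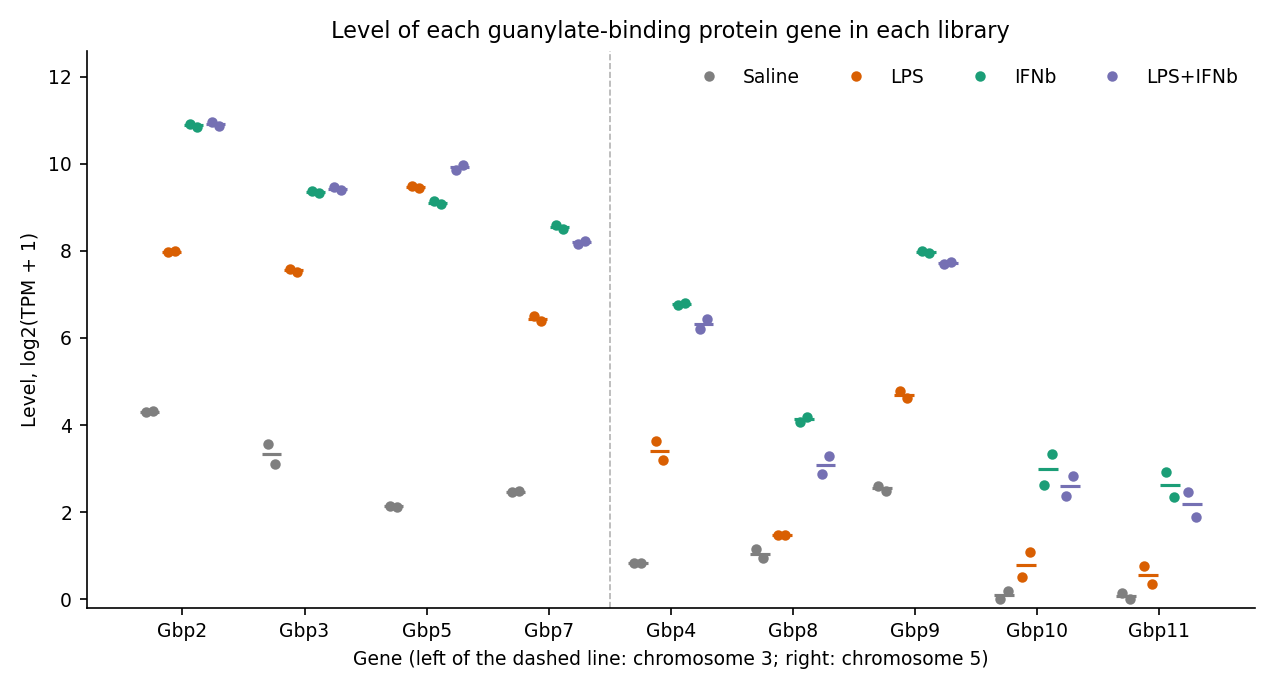
Level of each of the 9 analysed genes as log2(TPM + 1), with 1 point per library and a bar at the mean of the 2 libraries of a group. In LPS libraries Gbp5 stands highest at 695 and 714 TPM, while in IFNb and LPS+IFNb libraries Gbp2 stands highest, between 1841 and 2009 TPM.

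The direct contrast of IFNb with LPS, both at 4 h, parted Gbp5 from the rest. Gbp5 was lower with IFNb (0.784 of its LPS mean, -0.35 ± 0.08, adjusted p = 0.0113), and its libraries did not overlap, as held for 31.9% of all genes lower with IFNb. That call was lost without LPS replicate 1 (-0.33, adjusted p = 0.0628) or without IFNb replicate 2 (-0.31, adjusted p = 0.0789). The other 8 members were all higher with IFNb than with LPS, among them 6 of the 7 with at least 1 TPM in both LPS libraries, where 22.1% of all genes were higher and 16.6% lower. Among the chromosome 3 genes the log2 difference was lowest for Gbp3 (1.80 ± 0.15, adjusted p = 0.000154), the mean was 4.33-fold higher for Gbp7 (2.10 ± 0.08, adjusted p = 8.22e-06) and 7.53-fold for Gbp2 (2.91 ± 0.07, adjusted p = 3.08e-06). The 5 chromosome 5 genes had ratios of mean TPM from 9.18 for Gbp8 to 11.1 for Gbp4, and log2 differences from 2.08 for Gbp11 to 3.37 for Gbp4. Between single libraries the ratio ran from 4.70 to 21.8 for Gbp10 and from 5.89 to 24.9 for Gbp11, whose LPS means were under 1 TPM. The 5 genes share sequence and are not independent of each other, and a difference between the clusters was not tested.

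When LPS followed IFNb, the family stayed near its level with IFNb alone on the deposited scale, and Gbp5 rose further. With median-ratio scaling the summed level was 119-fold that of saline with IFNb and 163-fold with LPS+IFNb. Gbp2 was at 2009 and 1869 TPM and overlapped with IFNb alone (0.03 ± 0.07, 95% interval -0.14 to 0.21, adjusted p = 0.741), but was called higher with median-ratio scaling (0.38, adjusted p = 0.0258). Gbp3 was at 704 and 672 TPM (0.07 ± 0.15, interval -0.28 to 0.42, adjusted p = 0.728), just above both IFNb libraries. Gbp5 reached 934 and 1013 TPM, 1.76-fold the mean with IFNb alone (0.82 ± 0.08, adjusted p = 0.000658), and no library overlapped, as held for 16.8% of all genes higher in LPS+IFNb.

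Gbp7 and Gbp8 were called lower than with IFNb alone, Gbp7 on the deposited scale only. Gbp8 was at 6.32 and 8.75 TPM, 0.457 of the IFNb mean (-1.05 ± 0.18, adjusted p = 0.00592), and Gbp7 at 286 and 298 TPM (-0.35 ± 0.08, adjusted p = 0.0165). Neither gene's libraries overlapped between the groups, as held for 57% of all genes on the lower side. The median of all genes was -0.30 in this comparison, and with median-ratio scaling, which moves that median by 0.28, Gbp7 had -0.01 (adjusted p = 0.951) and Gbp8 -0.74. Gbp7 also lost its call when any 1 of the 4 IFNb or LPS+IFNb libraries was left out (adjusted p from 0.0547 to 0.0986), while Gbp8 and Gbp5 kept theirs.

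Gbp4 (72.7 and 86.3 TPM, -0.46 ± 0.16, adjusted p = 0.0660) and Gbp9 (206 and 212 TPM, -0.26 ± 0.09, adjusted p = 0.0694) did not pass, and the sign for Gbp9 turned with median-ratio scaling (0.09). Gbp10 had 4.16 and 6.16 TPM (-0.38 ± 0.32, adjusted p = 0.378) and Gbp11 4.54 and 2.72 TPM (-0.45 ± 0.29, adjusted p = 0.268), and both overlapped with IFNb alone. Thus 1 of 9 members was higher and 2 were lower, against 8.76% and 30.5% of all genes (1140 and 3967 genes, or 1788 and 1423 with median-ratio scaling). The share of lower members was near the background. The members' median was -0.35, close to that of all genes.

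Set against LPS alone, LPS+IFNb was higher for all 9 members. Gbp10 and Gbp11 entered the test through the IFNb and LPS+IFNb libraries, and all 7 members with at least 1 TPM in both LPS libraries were higher, where 10.8% of all genes were higher and 24.1% lower (1400 and 3129 genes, or 1989 and 1368 with median-ratio scaling). The rise was largest on the log2 scale for Gbp9 (8.34-fold, 3.01 ± 0.09, adjusted p = 3.31e-05), Gbp2 (7.71-fold, 2.94 ± 0.07, adjusted p = 2.58e-05) and Gbp4 (8.13-fold, 2.91 ± 0.16, adjusted p = 0.000125). Gbp3 was 3.68-fold higher (1.87 ± 0.15, adjusted p = 0.000369) and Gbp7 3.39-fold (1.75 ± 0.08, adjusted p = 7.67e-05). Gbp5 differed least, at 1.38-fold (0.46 ± 0.08, adjusted p = 0.00497). Gbp10 (1.82 ± 0.32), Gbp8 (1.59 ± 0.18) and Gbp11 (1.64 ± 0.29) had adjusted p-values of 0.00657, 0.00131 and 0.00717.

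Against saline, LPS+IFNb libraries were higher for all 9 members, and for all 6 of those with at least 1 TPM in a saline library, from 2.04 ± 0.18 for Gbp8 (adjusted p = 0.000118) to 7.80 ± 0.08 for Gbp5 (289-fold, adjusted p = 8.25e-08), where 15.2% of all genes were higher and 54.1% lower (1980 and 7042 genes, or 3567 and 3274 with median-ratio scaling). Gbp2 was 103-fold above saline (6.62 ± 0.07, adjusted p = 8.25e-08), and IFNb alone had given 6.58 ± 0.07 for this gene.

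**Figure D3:**
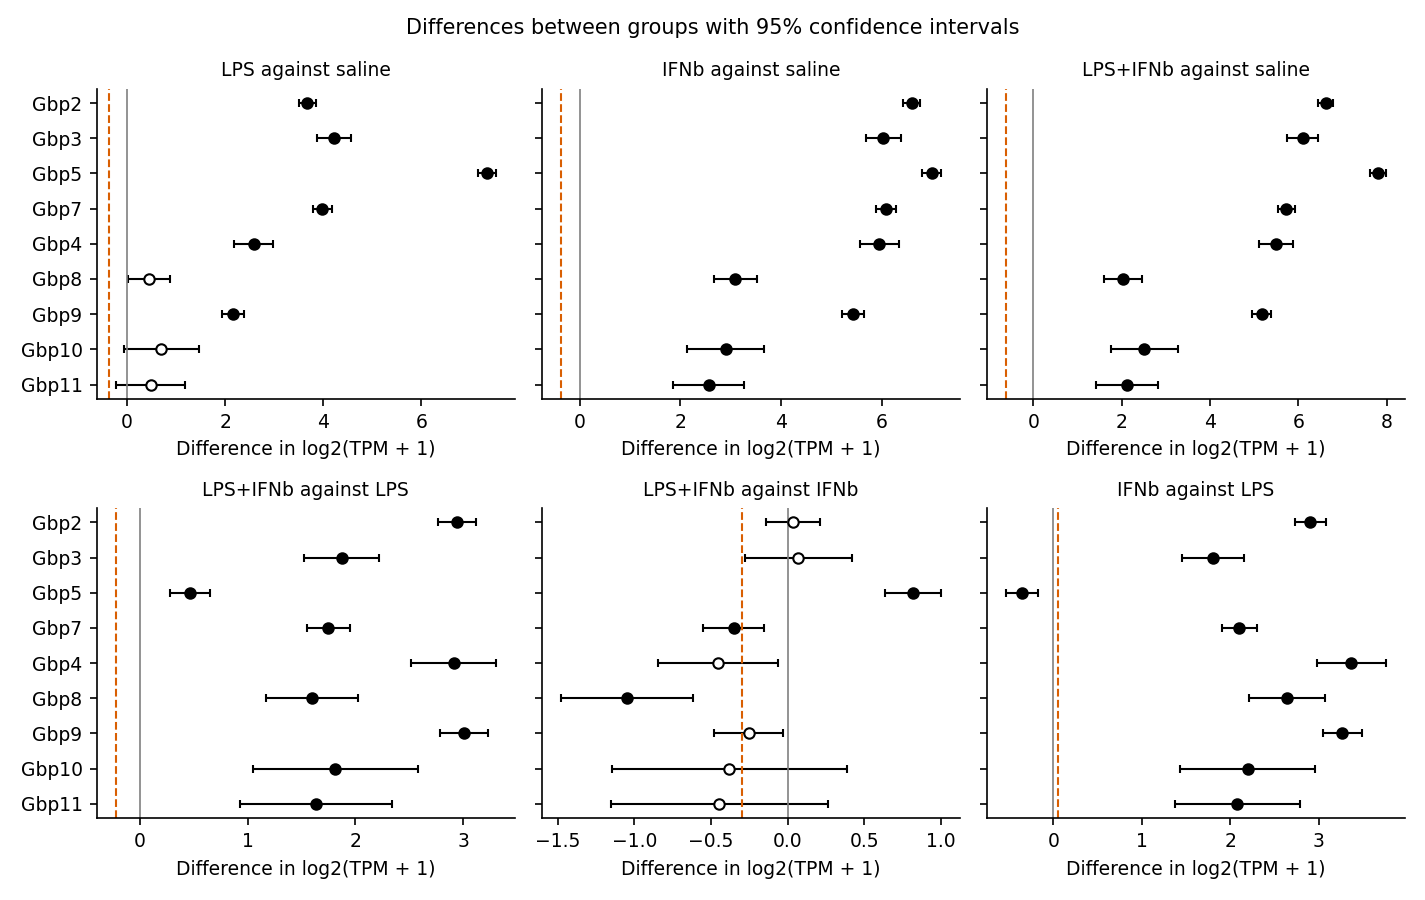
Difference in log2(TPM + 1) between 2 groups for each gene, with 95% confidence intervals from limma; filled points passed at an adjusted p under 0.05 and the dashed orange line is the median of all 13009 genes. Gbp5 is the only point below 0 in IFNb against LPS (-0.35) and the highest in LPS+IFNb against IFNb (0.82).

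The effects of IFNb and LPS were less than additive on the log2 scale. The interaction, the LPS difference after IFNb less the LPS difference without it, was negative and passed for 7 of 9 members. These were all 6 with at least 1 TPM in a saline library, and Gbp4, which entered the test only through treated libraries. Over all genes 4.45% passed as negative and 3.51% as positive (579 and 457 genes, or 630 and 269 with median-ratio scaling). It was largest for Gbp5 (-6.52 ± 0.11, adjusted p = 3.81e-06), followed by Gbp7 (-4.33 ± 0.12, adjusted p = 1.29e-05), Gbp3 (-4.15 ± 0.21, adjusted p = 7.72e-05) and Gbp2 (-3.64 ± 0.10, adjusted p = 1.31e-05). Gbp4 had -3.04 ± 0.23 (adjusted p = 0.000593), Gbp9 -2.41 ± 0.13 (adjusted p = 0.000124) and Gbp8 -1.49 ± 0.25 (adjusted p = 0.0184). Gbp8 lost this call without LPS replicate 1 or 2, IFNb replicate 1 or 2, or LPS+IFNb replicate 1 (adjusted p from 0.0515 to 0.0833). Gbp10 (-1.08 ± 0.45, adjusted p = 0.213) and Gbp11 (-0.93 ± 0.42, adjusted p = 0.246) did not pass. The interaction carries the difference in time after IFNb as well.

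The make-up of the family differed between groups, and these shares were not tested. Gbp5 was 7.62% and 8.23% of the summed TPM of the 9 genes in saline, 55.5% and 55.7% after LPS, 14.3% in either IFNb library and 22.1% and 24.3% with LPS+IFNb. Gbp2 was 41.8% and 46.3% in saline, 19.4% and 20.3% after LPS, 49.3% and 48.8% with IFNb and, in LPS+IFNb libraries, 47.5% and 44.9%. The chromosome 5 genes together held 16.1% and 15.8% in saline, 3.18% and 2.79% after LPS, 9.83% and 10.2% with IFNb and, in LPS+IFNb libraries, 6.94% and 7.59%. These shares do not depend on how libraries are scaled, and no 2 groups overlapped for Gbp5 or for the chromosome 5 sum. That sum leaves out Gbp6 and Gm43302, whose transcript shares words with Gbp10 and Gbp6. Gm43302 was at 189 and 218 TPM with IFNb and at 238 and 304 TPM with LPS+IFNb. The chromosome 5 sum was 389 and 386 TPM with IFNb and 293 and 316 TPM with LPS+IFNb. Gm43302 was thus higher where the sum was lower. With Gm43302 added in each library, the sums in TPM overlap between IFNb and LPS+IFNb. Whether the shares stay apart with it included was not tested.

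The summed level was 44.4 and 40.9 TPM in saline, 1285 and 1249 TPM after LPS, 3955 and 3770 TPM with IFNb and, in LPS+IFNb libraries, 4227 and 4167 TPM. These means are 29.7-fold, 90.6-fold and 98.4-fold that of saline, in that order. With median-ratio scaling the folds were 40.9, 119 and 163. The family held 0.42% of all TPM in LPS+IFNb libraries. The sums were not tested.

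**Figure D4:**
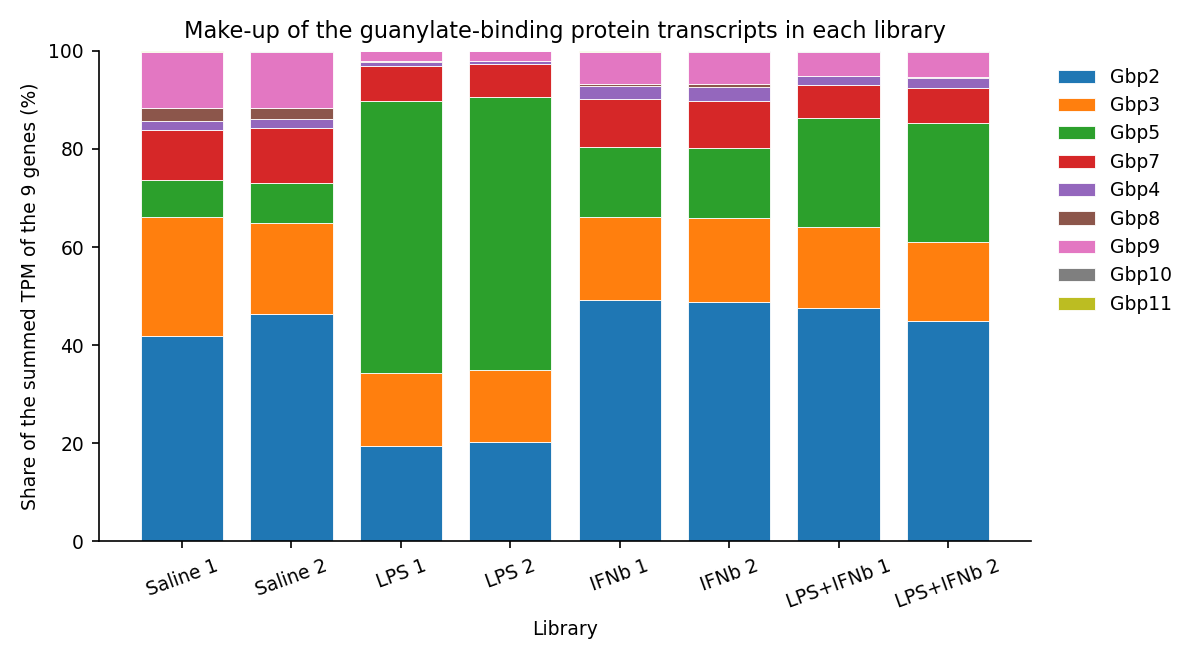
Share of each gene in the summed TPM of the 9 genes, with 1 bar per library. Gbp5 fills 55.5% and 55.7% of the LPS bars and at most 24.3% of any other, while Gbp2 fills 41.8% to 49.3% of the bars of the other groups.

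The order of the members by mean level also moved. Gbp2, Gbp3, Gbp9, Gbp7 and Gbp5 led in saline in that order, against Gbp5, Gbp2, Gbp3, Gbp7 and Gbp9 with LPS. With IFNb the order was Gbp2, Gbp3, Gbp5, Gbp7, Gbp9, and with LPS+IFNb it was Gbp2, Gbp5, Gbp3, Gbp7, Gbp9. Gbp4, Gbp8, Gbp10 and Gbp11 followed in each of the 3 treated groups. In all 4 groups the libraries of Gbp10 and Gbp11 overlapped and every other pair of neighbours stood apart.

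Single transcripts were estimated with less certainty than genes. Gbp9 has 2 transcripts in the files: Gbp9-201 starts at chr5:105110276, and Gbp9-202 starts at chr5:105139539, beside the start of Gbp4-201 at chr5:105139586. The upstream Gbp9-202 made up 43.3% ± 0.144 of Gbp9 in saline (SD, n = 2), 23.7% ± 0.101 with LPS, 34.3% ± 2.35 with IFNb and 45.7% ± 2.27 with LPS+IFNb. Its share was lowest with LPS, where no library overlapped with another group. In TPM it went from 2.10 ± 0.137 in saline to 5.93 ± 0.523 with LPS, 85.4 ± 4.17 with IFNb and 95.4 ± 6.88 with LPS+IFNb, while Gbp9-201 was at 164 ± 9.14 TPM with IFNb and 113 ± 2.19 TPM with LPS+IFNb. Nearly all of the Gbp8 level, at least 99.8% in each treated library, was assigned to Gbp8-201, which also starts beside Gbp4, at chr5:105139540.

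Of the 6 Gbp3 transcripts in the files, Gbp3-203 and Gbp3-202 held most of the gene. Gbp3-203 made up 60.1% ± 8.67 with LPS, 46.2% ± 2.77 with IFNb and 56.3% ± 0.638 with LPS+IFNb, and Gbp3-202 29.3% ± 5.15, 40.2% ± 2.67 and 34.5% ± 0.976. In saline these shares differed widely between the 2 libraries (54.9% ± 33.4 and 29.4% ± 41.6), so no shift from rest can be read. Gbp2, Gbp5 and Gbp7 were nearly all 1 transcript: Gbp2-201, Gbp5-201 and Gbp7-202.

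**Figure D5:**
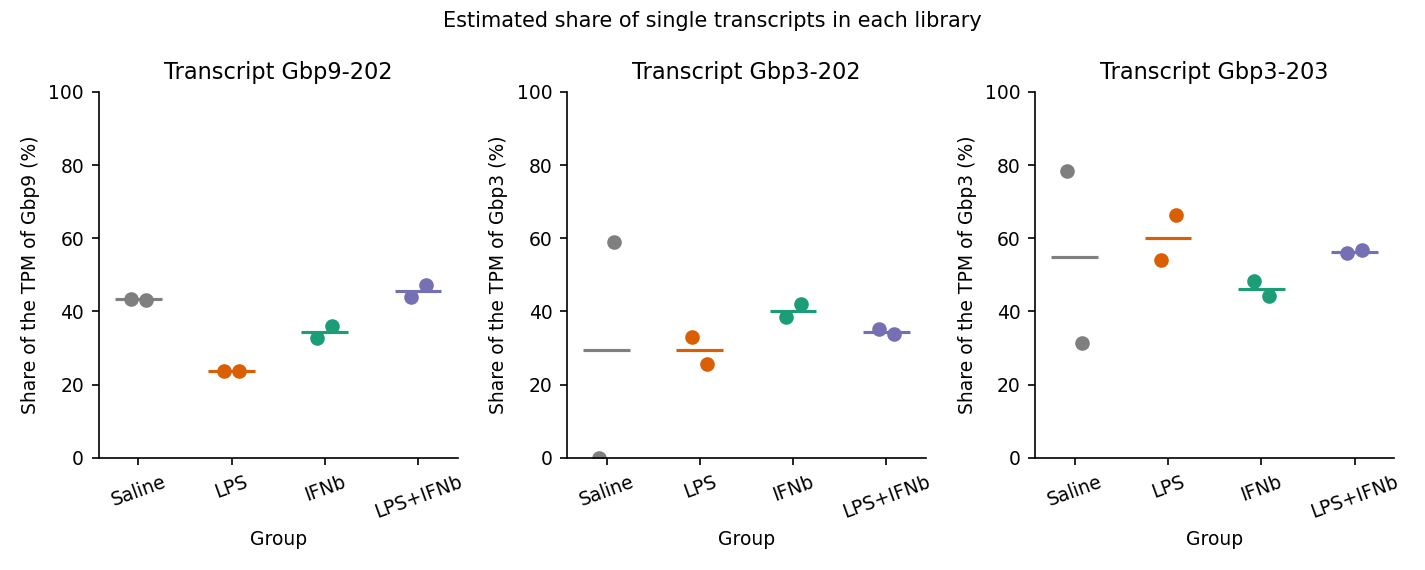
Estimated share of a transcript in the TPM of its gene, with 1 point per library and a bar at the group mean, for Gbp9-202, Gbp3-202 and Gbp3-203. Gbp9-202 lies at 23.6% and 23.8% in the LPS libraries and at 32.6% or more in the others, while the saline points of the Gbp3 transcripts lie far apart.

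A pair of related loci beside the members was followed too. Gm43302 (chr5:105214907-105293695) holds 93.9% of the 31-base words of Gbp6-201, 94.8% of those of Gbp6-203 and 55.3% of those of Gbp6-202. In turn Gbp6-203 holds 91.8% of the words of Gm43302, so the 2 are nearly alike in sequence. The share of Gm43302 reads that came from Gbp6 or Gbp10 was not tested. It was at 3.97 and 2.18 TPM in saline, 61.1 and 38.9 after LPS, 189 and 218 with IFNb and, in LPS+IFNb libraries, 238 and 304. It was higher than saline in each (3.65 ± 0.28, 5.68 ± 0.28 and 6.08 ± 0.28, adjusted p = 0.000156, 1.94e-05 and 1.01e-05). The other is Gbp2b, known as mouse Gbp1, which lies between Gbp3 and Gbp2 and had 95.8% of words of its own. It stayed low, at 0.334 and 0.360 TPM in saline, 0.438 and 0.477 after LPS, 2.26 and 2.46 with IFNb and, in LPS+IFNb libraries, 1.66 and 1.49. Its rise passed with IFNb (1.32 ± 0.16, adjusted p = 0.00104) and not with LPS (0.11 ± 0.16, adjusted p = 0.586). The start-site window of Gbp2b held the same ISRE letters as that of Gbp2, TTTCACTTTC, 137 bases before the start.

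The genes that act upstream of the family were taken from lists. For all list counts against saline, 12.8% of all genes were higher and 41.3% lower with LPS, and 13% and 38.6% with IFNb. Of 6 interferon ligands 3 were tested (Ifnb1, Ifng and Ifna5). All 3 were near 0 in saline and entered the test only through treated libraries, where they had to be higher, so no count over them is read. Ifnb1 was listed at 0 in saline, at 10.9 and 10.01 TPM after LPS, at 0.229 and 0.101 TPM with IFNb and at 158 and 59.5 TPM with LPS+IFNb. Ifng, the type II interferon and the 1 of these that passed with LPS and with IFNb (adjusted p = 0.00500 and 0.0274), was at 0.126 and 0.0597 TPM in saline, 1.11 and 1.81 after LPS, 0.651 and 1.04 with IFNb and, in LPS+IFNb libraries, 5.41 and 6.62. Among 7 receptor chains and JAK kinases 3 rose with LPS and none fell, and 2 rose and 2 fell with IFNb (with median-ratio scaling 5 rose, and 4 rose and 1 fell). The kinase Jak2 rose by 3.33 ± 0.08 with LPS (adjusted p = 1.10e-06) and 2.47 ± 0.08 with IFNb (adjusted p = 2.31e-06), and the interferon gamma receptor chain Ifngr1 had -2.28 ± 0.15 with IFNb (adjusted p = 7.16e-05).

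Irf1, a direct activator of several members, was at 37.4 and 35.5 TPM in saline, 596 and 523 after LPS, 368 and 390 with IFNb and, in LPS+IFNb libraries, 558 and 651. Its LPS libraries lay above its IFNb libraries, as those of Gbp5 did and as held for 31.9% of all genes. In LPS+IFNb libraries Irf1 overlapped with LPS alone, while Gbp5 was higher than with LPS alone. A link between Irf1 and the level of Gbp5 was not tested. Of 6 feedback inhibitors 4 rose and 2 fell with LPS, and 4 rose and none fell with IFNb (with median-ratio scaling 4 and 6 rose and none fell), among them Socs1 (4.82 ± 0.17 and 6.30 ± 0.17, adjusted p = 4.12e-06 and 1.17e-06).

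Immunity-related GTPases, which load onto the same vacuoles, were the closest family in function. All 7 rose with LPS, with IFNb and with LPS+IFNb against saline, with medians of 3.57, 6.04 and 6.06. Irgm1, a regulator of the group, was at 36.8 and 32.4 TPM in saline, 405 and 394 after LPS, 953 and 927 with IFNb and, in LPS+IFNb libraries, 962 and 887. Iigp1 went from 0.713 and 0.888 TPM to 19.5 and 15.7 with LPS and 494 and 529 with IFNb. All 7 were higher with IFNb than with LPS, as were 8 of the 9 guanylate-binding proteins and 22.1% of all genes. None of the 7 was higher in LPS+IFNb than in IFNb alone, where 8.76% of all genes were higher. There 2 of 7 were lower, near the 30.5% of all genes, and 0 with median-ratio or 1 with upper-quartile scaling. The interaction was negative and passed for all 7, against 4.45% of all genes. Its median was -4.05, against -3.04 for the 9 guanylate-binding proteins. Iigp1 was under 1 TPM in both saline libraries and entered the tests through treated libraries. Tgtp1 and Tgtp2, near-identical copies, are uncertain, since reads may be split between them.

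Downstream, 8 genes of the non-canonical and classical inflammasome were followed. With LPS 7 rose and 1 fell, where 12.8% of all genes were higher and 41.3% lower. With IFNb 6 rose and none fell, where 13% were higher and 38.6% lower. With median-ratio scaling 7 rose with LPS and 6 with IFNb, and none fell. Casp4, the mouse caspase that binds LPS, was at 22.2 and 24.1 TPM in saline, 244 and 249 after LPS, 268 and 250 with IFNb and, in LPS+IFNb libraries, 438 and 415. Its substrate Gsdmd, the pore-forming gasdermin, had 39.8 and 40.8 TPM in saline, 65.9 and 67.9 after LPS, 89.0 and 88.2 with IFNb and, in LPS+IFNb libraries, 125 and 121. Nlrp3, the sensor of the classical pathway, rose with LPS (4.55 ± 0.15, adjusted p = 3.22e-06) and had -0.13 ± 0.15 with IFNb (adjusted p = 0.491).

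Calls for cofactors of the family depended on scaling. Of 9 genes for the ubiquitin-like conjugation that guides these GTPases to vacuoles 7 fell with LPS and none rose, and 6 fell and 1 rose with IFNb, with medians of -0.73 and -0.71 against -0.38 and -0.37 for all genes. With median-ratio scaling 4 fell and none rose with LPS, and 4 fell and 2 rose with IFNb. Gabarapl1 fell by 0.95 ± 0.09 with LPS (adjusted p = 0.000271) and 1.95 ± 0.09 with IFNb (adjusted p = 1.09e-05), and passed with median-ratio scaling too (-0.49 and -1.56). Of 5 genes listed for prenylation, which gives Gbp2 and Gbp5 their lipid anchor, 3 fell with LPS, 2 with IFNb and 5 with LPS+IFNb. There 41.3%, 38.6% and 54.1% of all genes were lower. With median-ratio scaling these counts were 0, 0 and 1. The shared subunit Fnta had -1.53 ± 0.12 with LPS+IFNb (adjusted p = 6.87e-05) and -0.83 with that scaling (adjusted p = 0.00158). Of 4 other dynamin-family GTPases 3 rose with each treatment against saline, and 1 fell with LPS+IFNb but not with median-ratio scaling. Mx1 and Mx2 rose with LPS (6.68 ± 0.11 and 7.70 ± 0.26) and with IFNb (7.34 ± 0.11 and 7.00 ± 0.26), with adjusted p of 4.68e-07 and 4.02e-06, and of 2.41e-07 and 5.34e-06.

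The genes whose pattern over the 8 libraries was most like the mean standardised pattern of the 9 members were Phf11b, Oas3, Ccdc25, Herc6 and Dhx58, each with Pearson r between 0.998 and 0.999. This is a description over 8 libraries that fall into 4 groups. Phf11b ran from 21.4 and 18.0 TPM in saline to 132 and 122 with LPS, 951 and 1046 with IFNb and, in LPS+IFNb libraries, 799 and 835. Oas3, an antiviral synthetase of oligoadenylates, and Dhx58, a helicase of the RIG-I-like group, are interferon-induced genes outside the family.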

How the data were processed

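RNA sequencing (Illumina TruSeq kit, per the labels) gave 8 libraries, 2 per group, with groups and replicate numbers from the labels. The deposited values are TPM for 88198 Ensembl transcripts per library, per the file headers; the submitters' processing notes name kallisto and mm10, while the sources used here give no version, options or strand. TPM keeps no depth, so no counting error can be given. IDs were matched to GENCODE M21 (GRCm38): 86119 matched, and the other 2079 (1.01% to 1.95% of TPM) were left out. TPM was summed per gene, and the 13009 genes reaching 1 TPM in 2 or more libraries entered as log2(TPM + 1) in limma 3.58.1 (R 4.3.3, intensity trend, 4 residual and 2.54 prior degrees of freedom), with 1 mean per group and two-sided p, Benjamini-Hochberg adjusted over all genes. The model was tested on simulated data. The members and lists were chosen with earlier results of these data known. All members are named, with list genes by adjusted p in LPS+IFNb against saline plus Ifnb1, Ifng, Irf1, Casp4, Gsdmd and Irgm1, and the 5 genes most like the members with a mean log2 level of at least 3, predicted and clone-named genes left out. List genes beside these were chosen after their values were seen, and 1 listed gene and its list's counts are not reported here. Sequences are RefSeq's and 31 bases were used as the word length. Alternatives were median-ratio and upper-quartile scaling, a pseudocount of 0.1, no filter, a minimum of 5 TPM, the 2 groups alone, an adjusted p under 0.01, a 2-fold minimum, a replicate block, protein-coding transcripts only and each library left out.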

Additional observations from a re-analysis of the deposited data

Results flagged for a closer look

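The effect of LPS differed between cells with and without prior IFNb, by the interaction test, for 7 members. These were all 6 with at least 1 TPM in a saline library, and Gbp4, which entered the test only through treated libraries. Over all genes 4.45% passed with a negative interaction. The interaction was also negative and passed for all 7 immunity-related GTPases and for 3 of 4 other dynamin-family GTPases, so it is not particular to this family. As log2 differences the interaction was -6.52 for Gbp5, -4.33 for Gbp7, -4.15 for Gbp3, -3.64 for Gbp2, -3.04 for Gbp4, -2.41 for Gbp9 and -1.49 for Gbp8 (limma, adjusted p from 3.81e-06 to 0.0184). The time after IFNb differs between the groups and cannot be told apart from the treatment. Groups of 2 libraries are too small for a test of single outlying libraries.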

How the results depend on the processing

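Of 63 differences (9 members in 7 comparisons), 61 kept their sign under every alternative run. The exceptions, in LPS+IFNb against IFNb, were Gbp2 (-0.02 to 0.38) and Gbp9 (-0.28 to 0.09). That comparison was also the least settled in its calls: 3 members were called, against 1 with a 2-fold minimum, 5 with protein-coding transcripts only, 5 in a fit to the 2 groups alone and 2 to 4 when single libraries were left out. Leaving out libraries gave 8 to 9 members in IFNb against LPS, 6 in LPS against saline, 6 to 7 in the interaction and 9 in each of the other comparisons. Gbp8 lost its interaction call in 7 alternatives. The summed level with median-ratio scaling was 32.5 TPM in saline, 1326 TPM with LPS and 5306 TPM with LPS+IFNb. Over all genes, same-numbered libraries deviated together weakly or not at all (correlations between groups from -0.16 to 0.14), so the numbers were not taken to pair them. Weak correlations over all genes do not show that pairing is absent. Among the members, Gbp10 was lower and Gbp11 higher in replicate 1 than in replicate 2 of every group. With the replicate block 7 members were called in LPS against saline in place of 6, Gbp10 being added (adjusted p = 0.0289), and the counts of the other comparisons were the same. The cause of these changes was not tested. Unknown depth limits the low genes Gbp8, Gbp10 and Gbp11 most.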
